A study of Mus musculus with 59 samples.

Results

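The 10 glucocorticoid response genes described here are Nr3c1, which encodes the glucocorticoid receptor, and 9 genes known to be induced by it: Fkbp5, Zbtb16, Map3k6, Sult1a1, Tsc22d3, Plin4, Sgk1, Klf9 and Pdk4. They are 10 of 18088 genes in a table of messenger RNA from the prefrontal cortex of 59 C57BL/6J mice, and all 10 reached the minimum mean for testing. Mice carried either 1 copy of a Shank3 knock-in (KI) allele, called HT, or none, called WT, and Shank3 encodes a scaffold protein of excitatory synapses. Through their dam's milk, pups received lithium, fluoxetine or vehicle for 3 weeks (postnatal days 3 to 24), and cortex was taken on postnatal day 25. The HT mice comprised 5 females and 5 males on lithium, 5 females and 5 males on fluoxetine, and 5 females and 5 males on vehicle. The WT mice comprised 4 females and 5 males on lithium, 5 females and 5 males on fluoxetine, and 5 females and 5 males on vehicle. The column names of the deposited table begin with L68P, and the labels themselves name no mutation, litter or dose. Because the dam received the drug and litters are not labelled, all p-values count pups as independent.

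Corticosterone from the adrenal gland enters the brain and binds the glucocorticoid receptor, which is held in the cytoplasm by chaperones until it moves to the nucleus and binds DNA at palindromic response elements. Genes with such elements rise after stress, at the daily peak of the hormone and after drugs that raise it. Fkbp5 encodes a cochaperone that lowers the receptor's affinity for hormone, and its own induction forms a short feedback loop.

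The genes were chosen by their changes with lithium in WT mice and between HT and WT mice on vehicle, together with their known response to glucocorticoids. Values from those contrasts, and from contrasts that contain them, are therefore given as descriptions without tests. Tests are given for lithium in HT mice, for fluoxetine, for lithium over fluoxetine in HT mice, for HT against WT mice on fluoxetine, for differences between the sexes in these drug effects and over all arms, and for covariation between mice of the same group. The HT and WT vehicle libraries entered the choice, so the drug effects tested over them are not independent of it: the choice favours a rise over WT vehicle mice and a fall over HT vehicle mice. Lithium over fluoxetine in HT mice and HT against WT mice on fluoxetine use no vehicle library. Levels are normalized counts, a gene's count divided by the size factor of its library. Changes are log2 fold changes ± SE of these counts plus 1, averaged over the sexes unless a sex is named, which understates the change of low genes such as Plin4. A gene is said to rise or fall where its adjusted p from limma was under 0.05 over all 16599 genes tested.

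The libraries held between 22984556 and 35969254 reads. Excitatory and inhibitory neuron markers of the cortex were well expressed in all 59, with a summed level between 54061 and 84583 for 7 markers and none at 0. The share of neighbouring tissue was less even, as 6 markers of olfactory bulb summed to between 221 and 14862, and 3 of them, Tbx21, Eomes and Lbhd2, were at 0 in at least 1 library. In 1 library, HT vehicle female 1, the 7 markers of choroid plexus summed to 53512, and 1 of the 7, Otx2, was at 0 in at least 1 library. The 10 libraries that stand apart in bulb markers, choroid plexus markers or mitochondrial reads were kept. Where results of the 10 genes change without them, the changed values are given, while for the lists of other genes only counts are. Fewer cells of a type and less RNA per cell cannot be told apart in tissue samples of this kind.

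Promoter sequences of 300 bases, from 250 before to 50 after each annotated start, came from RefSeq (GRCm38.p6) and were found for 8 of the 10 genes, in 15 windows. They were searched on both strands for the palindromic response element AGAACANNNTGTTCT, of 15 bases, and for the hexamer AGAACA or its complement TGTTCT, which is contained in the palindrome. The palindrome was present in 3 of 32851 mouse promoter windows, or 0.00913%, and 1 of these belongs to Sgk1. It begins 189 bases before that start (position -189), in the window of 1 of 6 listed Sgk1 starts. The hexamer was present in 6233 windows, or 19.0%, and in 5 of the 15 windows of these genes: 3 of Sgk1, 1 of Sult1a1 and 1 of Tsc22d3. The windows of Fkbp5, Map3k6, Plin4, Klf9 and Pdk4 held neither. Of these windows, 4 are printed because they show the palindrome, single hexamers and none, with the matching letters in capitals.
Sgk1 promoter, chr10:21993640-21993939 (+ strand): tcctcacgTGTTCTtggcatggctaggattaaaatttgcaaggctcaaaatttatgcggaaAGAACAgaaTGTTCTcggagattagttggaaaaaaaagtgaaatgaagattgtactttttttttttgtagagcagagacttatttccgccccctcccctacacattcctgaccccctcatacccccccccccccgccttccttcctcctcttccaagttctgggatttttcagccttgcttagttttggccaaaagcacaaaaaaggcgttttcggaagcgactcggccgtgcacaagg
Tsc22d3 promoter, chrX:140600473-140600772 (- strand): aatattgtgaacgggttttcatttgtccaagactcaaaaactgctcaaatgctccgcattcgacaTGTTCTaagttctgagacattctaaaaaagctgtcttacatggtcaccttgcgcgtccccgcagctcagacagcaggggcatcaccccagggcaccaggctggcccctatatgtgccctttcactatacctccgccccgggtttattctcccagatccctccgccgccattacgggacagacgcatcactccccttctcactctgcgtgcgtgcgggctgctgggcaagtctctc
Sult1a1 promoter, chr7:126676369-126676668 (- strand): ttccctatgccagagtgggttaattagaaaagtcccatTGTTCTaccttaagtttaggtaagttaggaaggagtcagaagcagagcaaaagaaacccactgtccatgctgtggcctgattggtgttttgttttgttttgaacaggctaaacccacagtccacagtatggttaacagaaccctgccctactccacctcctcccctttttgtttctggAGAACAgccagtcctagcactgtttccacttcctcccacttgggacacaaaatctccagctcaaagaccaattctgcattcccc
Map3k6 promoter, chr4:133240568-133240867 (+ strand): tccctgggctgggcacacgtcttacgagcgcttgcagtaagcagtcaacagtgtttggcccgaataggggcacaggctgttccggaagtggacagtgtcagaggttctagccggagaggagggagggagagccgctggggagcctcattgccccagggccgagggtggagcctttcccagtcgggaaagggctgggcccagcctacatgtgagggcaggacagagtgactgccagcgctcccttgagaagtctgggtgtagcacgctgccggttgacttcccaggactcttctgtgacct
In the Tsc22d3 window the hexamer begins 185 bases before the start, and in the Sult1a1 window at 212 and at 34 bases before it. These matches are letters in a window and were not measured as binding sites.

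Per kilobase of exon, Klf9, a zinc finger transcription factor, was the most abundant of the 10, at a mean of 1575 normalized counts per kb over the 59 libraries. Tsc22d3, which encodes the anti-inflammatory protein GILZ, followed at 431, Nr3c1 at 353 and Sgk1, a kinase that regulates ion transport, at 333 normalized counts per kb. Zbtb16, a transcription factor also called PLZF, stood at 206, Sult1a1, a sulfotransferase for phenols, at 183 and Fkbp5 at 112 normalized counts per kb. Pdk4, the kinase that switches off pyruvate dehydrogenase, stood at 60.4 and Map3k6, a stress-activated kinase, at 22.9 normalized counts per kb. Plin4, a lipid droplet coat protein, was lowest at 4.97 normalized counts per kb, with between 4 and 94 reads in a library. In GRCm38 coordinates of the GENCODE annotation, the genes span the following loci. Fkbp5 (ENSMUSG00000024222) lies at chr17:28399094-28517527 on the minus strand. Zbtb16 (ENSMUSG00000066687) lies at chr9:48654297-48836222 on the minus strand. Map3k6 (ENSMUSG00000028862) lies at chr4:133240818-133252929 on the plus strand. Sult1a1 (ENSMUSG00000030711) lies at chr7:126672865-126676432 on the minus strand. Tsc22d3 (ENSMUSG00000031431) lies at chrX:140539528-140600659 on the minus strand. Plin4 (ENSMUSG00000002831) lies at chr17:56100591-56109803 on the minus strand. Sgk1 (ENSMUSG00000019970) lies at chr10:21882184-21999903 on the plus strand. Klf9 (ENSMUSG00000033863) lies at chr19:23141226-23168134 on the plus strand. Pdk4 (ENSMUSG00000019577) lies at chr6:5483351-5496309 on the minus strand. Nr3c1 is named only. The library with the highest level was WT lithium male 4 for 7 of the 10 genes.

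**Figure D1:**
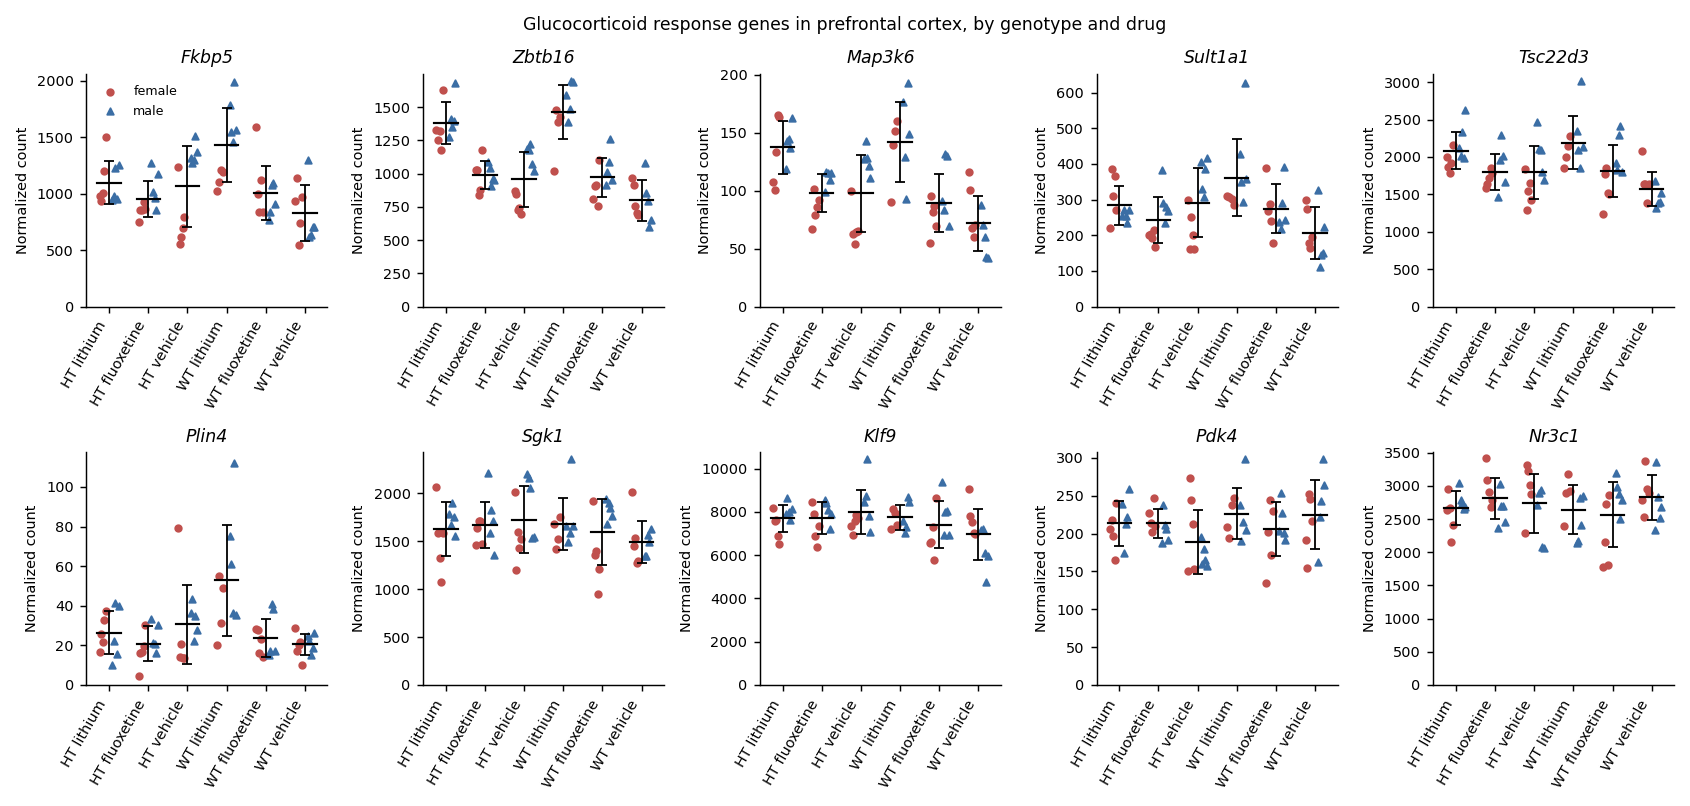
Normalized counts of the 10 genes in each mouse, by genotype and drug, with females as circles and males as triangles. Bars show the mean ± SD of each group of 10 mice (9 for WT lithium). WT lithium has the highest mean for Fkbp5, Zbtb16, Map3k6, Sult1a1, Tsc22d3 and Plin4, and HT vehicle males lie above HT vehicle females for Fkbp5, Zbtb16, Map3k6 and Sult1a1.

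In HT mice 3 of the 10 genes, Zbtb16, Map3k6 and Tsc22d3, rose with lithium and 0 fell, where 20.3% of all genes tested passed and 10.9% rose. The other 7 did not pass, among them Fkbp5 and Nr3c1. The median change over the 10 was 0.06, against -0.00 over all genes.

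Zbtb16 ranged from 1178 to 1680 with a median of 1340 in HT lithium mice, against 697 to 1226 with a median of 945 in HT vehicle mice. Only HT vehicle males 1 and 3 reached the lowest HT lithium mouse, female 4. The change was 0.55 ± 0.08 (adjusted p = 5.89e-06).

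Map3k6 ranged from 100.2 to 165 with a median of 140 in HT lithium mice, against 53.6 to 143 with a median of 105 in HT vehicle mice. The groups overlapped through the HT vehicle males. The change was 0.55 ± 0.14 (adjusted p = 0.00365). Tsc22d3 ranged from 1786 to 2633 with a median of 2004 in HT lithium mice, against 1292 to 2468 with a median of 1750 in HT vehicle mice. These ranges overlapped widely, and the change was 0.23 ± 0.08 (adjusted p = 0.0389). The Tsc22d3 call was lost on leaving out any 1 of 9 libraries, at changes between 0.20 and 0.23: HT lithium females 1 and 5 and males 3 and 5, and HT vehicle females 2, 3 and 5 and males 4 and 5. It was also lost without the 10 libraries that stand apart (0.17, adjusted p = 0.219), where Zbtb16 (0.52) and Map3k6 (0.47, adjusted p = 0.0346) still passed.

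Fkbp5 did not pass in HT mice. It ranged from 936 to 1502 with a median of 995 in HT lithium mice, against 552 to 1514 with a median of 1255 in HT vehicle mice. The vehicle mice were the more spread of these groups, with all males above all females. The change was 0.11 ± 0.13, with a 95% interval from -0.15 to 0.37.

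The other 6 did not pass either. Sult1a1 averaged 283 ± 54.0 in HT lithium mice and 291 ± 96.0 in HT vehicle mice (SD, n = 10 each), a change of 0.02 with an interval from -0.28 to 0.31. Plin4 averaged 26.3 ± 10.9 in HT lithium mice and 30.6 ± 19.97 in HT vehicle mice, and HT vehicle female 1, the library with choroid plexus markers, held the highest value at 79.1. Sgk1 changed by -0.08 ± 0.10 and Klf9 by -0.05 ± 0.07. Pdk4 changed by 0.19 ± 0.11 and Nr3c1 by -0.02 ± 0.08, with an interval from -0.19 to 0.14 for the receptor.

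Markers of other cells and genes induced by neuronal activity were read in the same comparison. Of 9 endothelial markers 2 rose (median 0.12), and their sum lay between 6961 and 10579 in HT lithium mice, against 7106 to 8723 in HT vehicle mice. Of 8 astrocyte markers 2 rose (median 0.17), with sums from 113368 to 162004 in HT lithium mice, against 104768 to 141162 in HT vehicle mice. Of 6 microglial markers 3 rose (median 0.16). None of 9 myelin markers passed, and all 9 lay below 0 (median -0.38). The 6 olfactory bulb markers also lay below 0 (median -1.06, none passing), with sums from 221 to 10799 in HT lithium mice, against 266 to 10797 in HT vehicle mice. The 6 choroid plexus markers tested lay below 0 as well (median -0.60, none passing). All 5 rapid activity genes lay above 0 (median 0.35) and 1 passed, with sums from 11283 to 23632 in HT lithium mice, against 4701 to 19985 in HT vehicle mice. No endothelial, astrocyte, microglial or myelin marker was at 0 in any library. Their part in the changes of these genes was not tested, and with the summed endothelial markers in the model the changes of Zbtb16 and Map3k6 were 0.61 and 0.60. With bulb and choroid plexus markers in the model they were 0.54 and 0.64, and with rapid activity and clock genes 0.57 and 0.59, and both genes passed in each of these models. Tsc22d3 did not pass in limma with the endothelial markers (0.22, adjusted p = 0.0605), with rapid activity and clock genes (0.19, adjusted p = 0.0987) or after quantile normalization (0.21, adjusted p = 0.0591), and passed with bulb and choroid plexus markers (0.26, adjusted p = 0.0165).

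**Figure D2:**
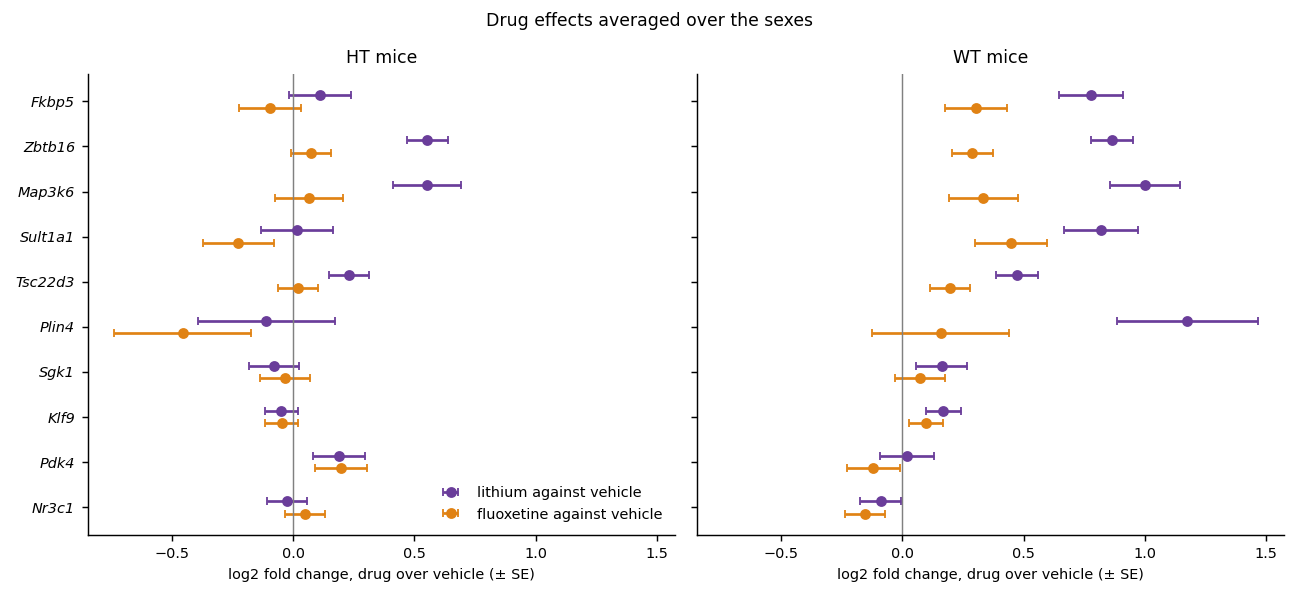
Log2 fold changes ± SE of the 10 genes with lithium and with fluoxetine over vehicle, in HT mice at left and WT mice at right. With lithium, Zbtb16 stands at 0.55 in HT and 0.86 in WT mice, while Fkbp5 stands at 0.11 in HT and 0.78 in WT mice.

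In WT mice, the contrast in view when the genes were chosen, 9 of the 10 lay above 0 with lithium and the median change was 0.63. Plin4 had the largest change, 1.17 ± 0.29, followed by Map3k6 at 0.9996 ± 0.15, Zbtb16 at 0.86 ± 0.09, Sult1a1 at 0.82 ± 0.15, Fkbp5 at 0.78 ± 0.13 and Tsc22d3 at 0.47 ± 0.09. These 6 passed the threshold that 12.8% of all genes passed, a count that the choice of genes fixes. Sgk1 and Klf9 changed by 0.16 ± 0.11 and 0.17 ± 0.07, Pdk4 by 0.02 ± 0.11 and Nr3c1 by -0.09 ± 0.08.

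Fkbp5 had a lowest value of 1021, a median of 1454 and a highest value of 1988 in WT lithium mice, against 547, 720 and 1298 in WT vehicle mice. WT vehicle female 2 and male 1 reached the lithium range, and the other 4 vehicle males lay between 613 and 705. Zbtb16 had a lowest value of 1018, a median of 1476 and a highest value of 1694 in WT lithium mice, against 595, 774 and 1079 in WT vehicle mice. Only WT lithium female 1, one of the libraries that stand apart, lay inside the vehicle range.

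Ordered by mean level, WT lithium came first for 7 of the 10 genes. For Fkbp5 the gap from WT lithium (1430 ± 326, SD, n = 9) to the next group, HT lithium (1098 ± 190, SD, n = 10), was larger than the SD of either. For Zbtb16 and Map3k6 both lithium groups stood together at the top, and the first gap beyond the SD was that between HT lithium and HT fluoxetine. Between all other neighbours in the order, and for the remaining genes between all neighbours, the gap was within the larger SD. WT vehicle had the lowest mean for Fkbp5, Zbtb16, Map3k6, Sult1a1, Tsc22d3, Plin4, Sgk1 and Klf9.

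The lithium change in HT mice lay below that in WT mice for 8 of the 10 genes, given as values since the WT contrast enters the difference. HT minus WT, it was -1.29 ± 0.40 for Plin4, -0.80 ± 0.21 for Sult1a1, -0.67 ± 0.18 for Fkbp5, -0.45 ± 0.20 for Map3k6 and -0.31 ± 0.12 for Zbtb16. On lithium itself, HT mice differed from WT mice by -0.89 ± 0.29 for Plin4, -0.33 ± 0.13 for Fkbp5 and -0.30 ± 0.15 for Sult1a1, and by -0.06 ± 0.09 for Zbtb16 and -0.02 ± 0.15 for Map3k6. On vehicle, HT mice differed from WT mice by 0.50 ± 0.15 for Sult1a1, 0.43 ± 0.14 for Map3k6, 0.33 ± 0.13 for Fkbp5 and 0.25 ± 0.08 for Zbtb16, with a median of 0.23 over the 10. On vehicle 0 of the 10 passed in limma, as did 0% of all genes, and 7 had an unadjusted p under 0.05, which the choice of the genes fixes. The genotype differences share the HT or WT libraries of the lithium effects.

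Few of these genes passed with fluoxetine. In HT mice 0 of the 10 passed in limma, where 0.277% of all genes did, and the changes ran from -0.46 ± 0.28 for Plin4 to 0.20 ± 0.11 for Pdk4. None of the 10 had an unadjusted p under 0.05 there, and edgeR and DESeq2 also called 0. In WT mice 1 of the 10, Zbtb16, rose, where 5.66% of all genes passed. The WT vehicle libraries of this comparison are those by which the genes were chosen, and they have the lowest mean for 8 of the 10, so a rise over them was favoured by the choice. HT and WT mice on fluoxetine differed in 0 of the 10 in limma, as in 0% of all genes. None of the 10 had an unadjusted p below 0.05, and edgeR and DESeq2 called 0. There HT minus WT ran from -0.22 ± 0.28 for Plin4 to 0.16 ± 0.14 for Map3k6.

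Zbtb16 had a lowest value of 760, a median of 935 and a highest value of 1260 in WT fluoxetine mice, against 595, 774 and 1079 in WT vehicle mice. The groups overlapped over most of their range, and the change was 0.29 ± 0.08 (adjusted p = 0.0296). Leaving out 1 of 9 libraries ended this call, at changes between 0.24 and 0.29: WT fluoxetine females 2 and 5 and males 3 and 4, and WT vehicle females 3, 4 and 5 and males 4 and 5. Sult1a1 (0.45 ± 0.15, adjusted p = 0.0579), Map3k6 (0.33 ± 0.14) and Fkbp5 (0.30 ± 0.13) did not pass. Without WT vehicle male 1, whose Fkbp5 level stood apart, 3 genes passed: Zbtb16, Sult1a1 at 0.56 and Fkbp5 at 0.40. Without WT vehicle female 1 or 2, 2 genes passed, with Sult1a1 at 0.51 and 0.49, and without WT fluoxetine female 5 Sult1a1 passed (0.52) in place of Zbtb16. Myelin markers moved with this comparison: 5 of 9 fell and all 9 lay below 0 (median -0.65), with sums from 54840 to 176580 in WT fluoxetine mice, against 87835 to 258599 in WT vehicle mice. Their part in it was not tested.

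Set directly against fluoxetine in HT mice, a comparison without vehicle libraries, lithium gave higher Zbtb16, 1 of the 10 genes, where 2.15% of all genes passed. Zbtb16 had a lowest value of 1178, a median of 1340 and a highest value of 1680 in HT lithium mice, against 839, 992 and 1178 in HT fluoxetine mice. The groups met at 1178 and otherwise did not overlap, and the difference was 0.48 ± 0.08 (adjusted p = 0.000915). Map3k6 had a lowest value of 100.2, a median of 140 and a highest value of 165 in HT lithium mice, against 67.3, 100.03 and 116 in HT fluoxetine mice, a difference of 0.49 ± 0.14 that just missed the threshold (adjusted p = 0.0505). It passed without HT fluoxetine female 5 (0.50), HT lithium female 1 (0.52), HT lithium female 2 (0.53) or HT lithium male 1 (0.52), and with edgeR (0.50, adjusted p = 0.0408) and DESeq2 (0.50, adjusted p = 0.0154). In WT mice, lithium exceeded fluoxetine by 0.57 ± 0.09 for Zbtb16 and 0.67 ± 0.15 for Map3k6, values that contain the libraries by which the genes were chosen.

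In HT mice on vehicle 4 of the 10 genes, Fkbp5, Zbtb16, Map3k6 and Sult1a1, separated the sexes completely, and the other 6 did not. The share of all genes that separated them was not counted, so this need not be particular to these genes. Fkbp5 stood at 1235, 552, 618, 692 and 796 in the 5 females, against 1318, 1274, 1300, 1514 and 1366 in the 5 males. All males lay above all females, and the highest female was female 1, the library with choroid plexus markers. Zbtb16 stood at 870, 845, 730, 738 and 697 in females, against 1183, 1176, 1226, 1075 and 1019 in males. Map3k6 stood at 99.6, 62.9, 53.6, 64.7 and 65.6 in females, against 127, 143, 128, 121 and 111 in males. In both genes, too, all males lay above all females. Sult1a1 stood at 298, 163, 250.1, 200.1 and 161 in females, against 404, 328, 308, 386 and 417 in males. Females minus males, the differences were -0.86 ± 0.18 for Fkbp5, -0.55 ± 0.12 for Zbtb16, -0.88 ± 0.20 for Map3k6, -0.81 ± 0.21 for Sult1a1 and -0.39 ± 0.12 for Tsc22d3. This comparison was singled out after the values were seen and is given without a test.

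In WT mice on vehicle the sexes overlapped for all 10 genes. Fkbp5 stood at 934, 1140, 547, 736 and 972 in females, against 1298, 613, 637, 701 and 705 in males, a difference of 0.15 ± 0.18. Females lay above males by 0.46 ± 0.20 for Map3k6 and by 0.31 ± 0.10 for Klf9, the opposite sign to that in HT vehicle mice. Females of both genotypes overlapped, and all HT vehicle males lay above 4 of the 5 WT vehicle males. HT minus WT on vehicle, Fkbp5 differed by -0.17 ± 0.18 in females and by 0.83 ± 0.18 in males. Map3k6 differed by -0.24 ± 0.20 in females and 1.10 ± 0.20 in males, Sult1a1 by -0.05 ± 0.21 and 1.05 ± 0.21, Zbtb16 by -0.04 ± 0.12 and 0.54 ± 0.12, and Klf9 by -0.03 ± 0.10 and 0.45 ± 0.10, in the same order of the sexes.

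The female genotype difference minus the male one was -1.34 ± 0.28 for Map3k6, -1.002 ± 0.25 for Fkbp5 and -1.10 ± 0.29 for Sult1a1. These values were singled out after they were seen and lie within a contrast by which the genes were chosen, so they are given without a test. Single libraries moved them: without WT vehicle male 1 they were -1.49 for Map3k6, -1.20 for Fkbp5 and -1.32 for Sult1a1, and without HT vehicle female 1 they were -1.48 for Map3k6 and -1.18 for Fkbp5. Without the 10 libraries that stand apart, Map3k6 was at -1.56 and Fkbp5 at -1.12. Without them Tsc22d3 was at -0.78 and Sgk1 at -0.60. With 1 library left out these ran from -0.65 to -0.50 for Tsc22d3 and from -0.41 to -0.21 for Sgk1.

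Genes induced rapidly by neuronal activity or handling were read in the same mice. The summed level of Fos, Egr1, Npas4, Arc and Junb lay between 4701 and 12801 in HT vehicle males, against 5941 to 22488 in WT vehicle males, and between 4997 and 19985 in HT vehicle females, against 6153 to 18234 in WT vehicle females. All 5 of these genes were lower in HT than in WT vehicle males (median -1.18) and 0 passed, and none was at 0 in any library. The summed level of 5 genes driven by the circadian clock lay between 12660 and 17275 in HT vehicle males, against 14509 to 18327 in WT vehicle males. With both sums in the model, the female genotype difference minus the male one was -1.21 for Map3k6, -0.59 for Fkbp5 and -0.76 for Sult1a1. The hour of killing is not labelled, and the part of handling or hour in these values was not tested.

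The lithium effect in HT mice was also read within each sex, in values that share these vehicle libraries. In females, Zbtb16 stood at 1326, 1255, 1318, 1178 and 1631 in HT lithium mice, above all HT vehicle females. In males it stood at 1272, 1412, 1354, 1395 and 1680 in HT lithium mice, above all HT vehicle males. Zbtb16 was thus higher with lithium in both sexes, by 0.79 ± 0.12 in females and 0.32 ± 0.12 in males.

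For Fkbp5 the values of the sexes lay on opposite sides of 0. In females it stood at 977, 936, 1010, 1199 and 1502 in HT lithium mice, above the other 4 HT vehicle females but, save female 5, below female 1. In males it stood at 944, 981, 1226, 948 and 1256 in HT lithium mice, below all HT vehicle males. The change was 0.57 ± 0.18 in females and -0.35 ± 0.18 in males. Sult1a1 changed by 0.54 ± 0.21 in females and -0.51 ± 0.21 in males, with the 5 HT lithium males (235 to 272) below all HT vehicle males. Map3k6 changed by 0.94 ± 0.20 in females and 0.16 ± 0.20 in males.

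The test of the difference between the sexes called 0 of the 10 genes in limma and 0.012% of all genes. It was 0.92 ± 0.25 for Fkbp5 and 1.06 ± 0.29 for Sult1a1 (adjusted p = 0.113 for each), 0.79 ± 0.28 for Map3k6 and 0.46 ± 0.17 for Zbtb16. At an unadjusted p under 0.05 these 4 and Nr3c1 passed, a count that stands without the share of all genes under that threshold. EdgeR called 0, and DESeq2 called 1 (Sult1a1, adjusted p = 0.046). Without HT vehicle female 1 the Fkbp5 difference was 1.10 and passed (adjusted p = 0.0415).

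**Figure D3:**
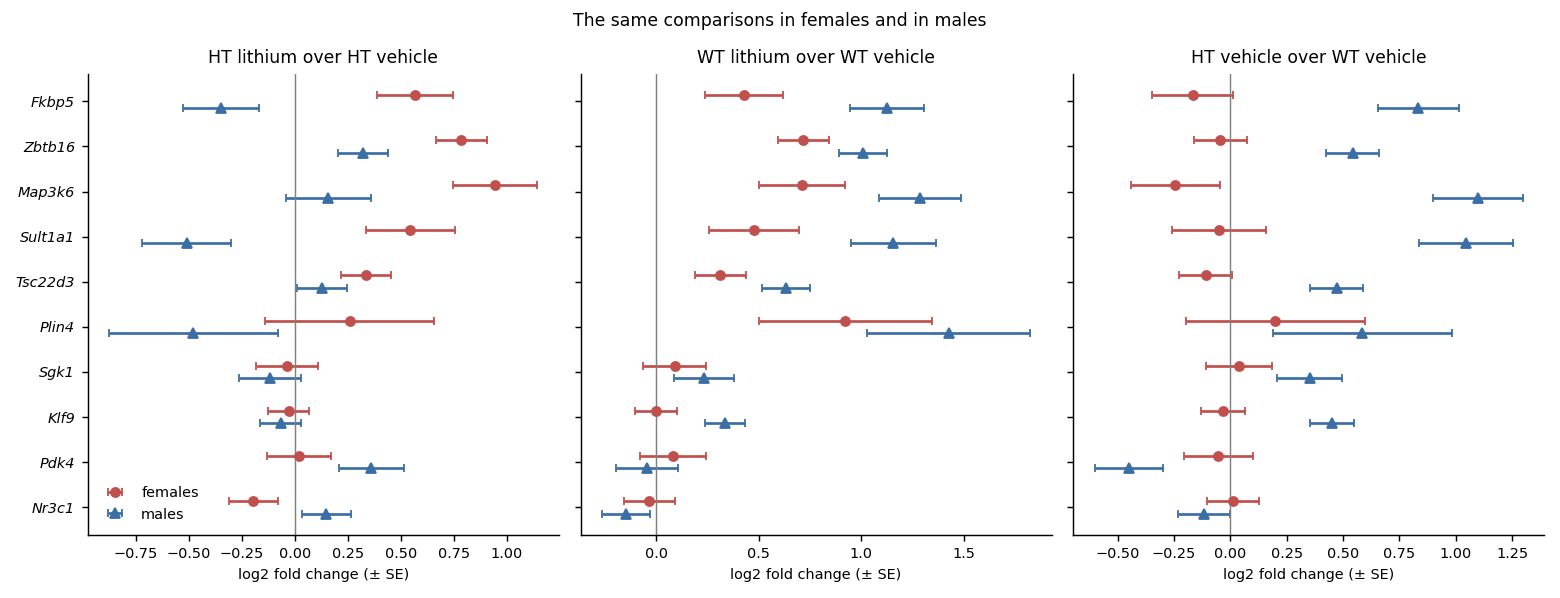
Log2 fold changes ± SE of the 10 genes in females (circles) and males (triangles), for lithium over vehicle in HT mice, lithium over vehicle in WT mice, and HT over WT mice on vehicle. In males the HT vehicle over WT vehicle values of Fkbp5, Map3k6 and Sult1a1 are 0.83, 1.10 and 1.05, and in females -0.17, -0.24 and -0.05.

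In WT mice the lithium values of Fkbp5, Map3k6 and Sult1a1 were larger in males than in females. Fkbp5 changed by 0.43 ± 0.19 in females and 1.13 ± 0.18 in males, Map3k6 by 0.71 ± 0.21 and 1.29 ± 0.20, and Sult1a1 by 0.48 ± 0.22 and 1.16 ± 0.21, in the same order of the sexes. Females minus males, the difference was -0.70 ± 0.26 for Fkbp5. These values lie within a contrast by which the genes were chosen and are given without a test.

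With fluoxetine in WT mice, the difference between the sexes was negative for Tsc22d3 (-0.57 ± 0.17, adjusted p = 0.0247) and Klf9 (-0.49 ± 0.14, adjusted p = 0.0229), 2 of the 10, where 8.66% of all genes passed. Tsc22d3 stood at 1231, 1774, 1852, 1519 and 1511 in WT fluoxetine females, against 2081, 1640, 1638, 1386 and 1641 in WT vehicle females. In males it stood at 1924, 1832, 2291, 2409 and 1798 in WT fluoxetine mice, against 1685, 1320, 1382, 1403 and 1516 in WT vehicle mice. The male groups did not overlap and the female groups did. Klf9 changed by -0.15 ± 0.10 in females and 0.34 ± 0.10 in males.

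The olfactory bulb markers moved with this result. Their sum lay between 235 and 14862 in WT fluoxetine females, against 330 to 7571 in WT vehicle females, and between 266 and 5578 in WT fluoxetine males, against 1405 to 8084 in WT vehicle males. All 6 markers had a positive difference between the sexes (median 1.55) and none passed. The same held for the 5 rapid activity genes (median 0.95, none passing). The part of either in the result was not tested. Without the libraries that stand apart, which include WT fluoxetine females 1, 2 and 4, neither gene passed, at -0.47 for Tsc22d3 and -0.29 for Klf9. With the bulb and choroid plexus markers as covariates both passed, at -0.55 and -0.44. The Tsc22d3 call ended without WT fluoxetine female 1 (-0.49), WT fluoxetine male 3 (-0.53), WT vehicle female 1 (-0.49) or WT vehicle male 4 (-0.56). The Klf9 call ended without WT fluoxetine female 2 (-0.47) or 4 (-0.42), WT fluoxetine male 1 (-0.42), WT vehicle female 1 (-0.42) or WT vehicle male 4 (-0.39). Map3k6 (-0.82 ± 0.28) and Nr3c1 (-0.45 ± 0.16) did not pass under the main settings. With all libraries kept, Map3k6 passed with quantile normalization (-0.89), 2 surrogate variables (-0.84), bulb and choroid plexus covariates (-0.83) and DESeq2 (-0.83). Nr3c1 passed with a replicate block (-0.45), an endothelial covariate (-0.50) and rapid activity and clock covariates (-0.58). Map3k6 also passed without WT fluoxetine female 3 (-0.84), male 2 (-0.88) or male 5 (-0.94), or without WT vehicle female 4 (-0.93), female 5 (-0.87), male 1 (-0.97) or male 2 (-0.89). Nr3c1 also passed without WT fluoxetine female 3 (-0.53) or female 5 (-0.54) or WT vehicle male 2 (-0.53). So 4 genes passed without WT fluoxetine female 3 or WT vehicle male 2, and 0 without WT vehicle female 1 or male 4.

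With fluoxetine in HT mice the difference between the sexes called 0 of the 10 in limma, as it did 0% of all genes. Zbtb16 (0.54 ± 0.17, adjusted p = 0.631) and Fkbp5 (0.55 ± 0.25) had an unadjusted p under 0.05, and edgeR and DESeq2 called 0. Averaged over all arms, females lay below males for 9 of the 10 genes, and 0 passed in limma, where 0.217% of all genes did, nor in edgeR or DESeq2. This comparison was added after the values were seen, and 7 had an unadjusted p under 0.05. For neither comparison is the share of all genes under that unadjusted threshold given. These unadjusted counts therefore need not be particular to the genes listed here. Without the 10 libraries that stand apart 2 passed, Fkbp5 (-0.31, adjusted p = 0.046) and Sgk1 (-0.24, adjusted p = 0.0165). Fkbp5 alone passed with 2 surrogate variables (-0.26, adjusted p = 0.0314), with bulb and choroid plexus markers (-0.28, adjusted p = 0.0281) or with rapid activity and clock genes (-0.27, adjusted p = 0.0471) in the model. With all libraries the differences were -0.22 ± 0.07 for Fkbp5, -0.19 ± 0.06 for Sgk1, -0.18 ± 0.05 for Zbtb16 and -0.17 ± 0.05 for Tsc22d3. These averages join unlike arms. For Fkbp5, females lay below males in HT vehicle mice, the comparison singled out above. In WT vehicle mice they lay above males, by less than the SE. A sex difference common to all arms is thus not shown.

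Between mice of the same group, with each of the 12 group means removed, 18 of the 45 pairs of these genes were correlated after adjustment over the pairs (Pearson, permutation test with 100000 permutations within groups), 14 positively and 4 negatively. Spearman's rho also passed for 18 pairs, 17 of them the same. Pairs of other genes were not tested in this way, so no share of passing pairs is available for comparison. These counts therefore need not be particular to the genes listed here.

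The receptor ran opposite to its cochaperone. Fkbp5 and Nr3c1 had r = -0.69 and rho = -0.69 over 59 mice (permutation p = 1e-05, the smallest these permutations can give, adjusted p = 0.00018). Without the pair of mice farthest from the median of Fkbp5, r was -0.65. It was -0.76 in females, -0.58 in males and -0.48 with 2 surrogate variables removed. Sult1a1 (r = -0.51) and Plin4 (r = -0.45) also ran against Nr3c1, while Pdk4 (r = 0.51) and Klf9 (r = 0.49) ran with it. The relation of Klf9 to the receptor was 0.01 once 2 surrogate variables were removed, and that of Pdk4 was 0.73 in females and 0.21 in males.

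Among the target genes, Zbtb16 and Map3k6 had r = 0.65 and Map3k6 and Tsc22d3 r = 0.65 (rho = 0.63 for each, adjusted p = 0.00018 for each, permutation test). Without the mice farthest from the median, these were 0.60 and 0.62. Fkbp5 covaried with Sult1a1 at r = 0.64, with Plin4 at r = 0.57 and with Map3k6 at r = 0.50, and ran against Pdk4 at r = -0.53. Zbtb16 and Klf9 had r = 0.57. Fkbp5 and Zbtb16 had r = 0.34 and did not pass (adjusted p = 0.0806, permutation test). Their r was 0.14 in females, 0.60 in males, 0.46 without the libraries that stand apart and 0.73 with 2 surrogate variables removed. By Pearson, Sgk1 passed with none of its 9 partners, with r between -0.00 and 0.34. By Spearman it passed with Tsc22d3 (rho = 0.40, adjusted p = 0.0172, permutation test).

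The library total, the dissection and the hour of killing are shared by all genes of a mouse, so these correlations describe covariation between cortices. Without the libraries that stand apart 16 pairs passed. In females alone 5 pairs passed and in males alone 12, each over fewer mice, and with 2 surrogate variables removed 30 passed, so the number of pairs depends on these settings.

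**Figure D4:**
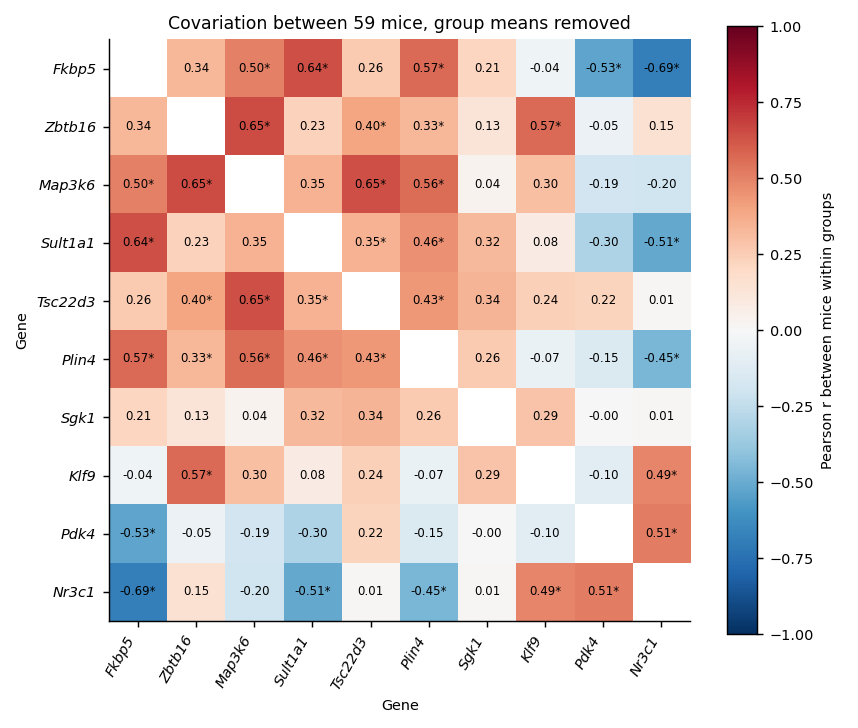
Pearson r between the 10 genes over 59 mice after subtracting each group's mean, with an asterisk where the adjusted permutation p is under 0.05. Fkbp5 and Nr3c1 stand at -0.69, and Zbtb16, Map3k6 and Tsc22d3 form positive pairs up to 0.65.

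Outside the list, the genes most like it were those whose level correlated best with the mean standardized level of the 10, given as a description over the same 59 group-centred mice. They were Net1 (r = 0.67), an activator of the small GTPase RhoA, then Smim3 (0.67), Pkp2 (0.66), Wipf3 (0.63), Fam107a (0.62), Abcc4 (0.61), Spns2 (0.60), Ociad2 (0.60), Galnt15 (0.59) and Thrsp (0.58). Within the list, Tsc22d3 (r = 0.78), Zbtb16 (0.74) and Map3k6 (0.73) lay closest to that mean, of which they are part, and Pdk4 (0.08) and Nr3c1 (0.06) farthest.

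Of 26 other genes known to respond to glucocorticoids, 25 reached the minimum mean. This list, like that of the receptor's partners below, was drawn up with earlier results of these data known. Its counts and p-values are therefore not independent of those results. With lithium in HT mice 8 rose and 1 fell, where 10.9% of all genes tested rose and 9.43% fell, and the median change was 0.18 against -0.00 over all genes. With lithium in WT mice 9 rose and 0 fell, where 7.66% rose and 5.11% fell, and the median was 0.15. Rising in both were 5 genes, of 8 in HT and 9 in WT mice: Mertk, Gjb6, Rasd1, Fam107a and Pnpla2.

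Rasd1, a small GTPase first found as a dexamethasone-induced gene, had the largest change in HT mice. It averaged 166 ± 27.6 in HT lithium mice and 113 ± 24.8 in HT vehicle mice (SD, n = 10 each), a change of 0.56 ± 0.12 (adjusted p = 0.000758). The clock gene Per1 averaged 3286 ± 384 in HT lithium mice and 2366 ± 409 in HT vehicle mice, a change of 0.48 ± 0.11 (adjusted p = 0.00104). Both ranges overlapped between the groups.

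Fam107a, an actin-binding protein induced by stress, rose by 0.35 ± 0.10, Nfkbia, the inhibitor of NF-kappaB, by 0.26 ± 0.09 and Mertk, a receptor for the uptake of debris, by 0.26 ± 0.08. Gjb6, the astrocyte gap junction protein connexin 30, rose by 0.25 ± 0.08, Pnpla2, a triglyceride lipase, by 0.23 ± 0.08 and Glul, glutamine synthetase, by 0.19 ± 0.05. Errfi1, an inhibitor of the EGF receptor, fell by 0.23. Without the libraries that stand apart 6 rose and 1 fell.

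Hif3a, a hypoxia-inducible factor subunit, passed in WT mice (0.96 ± 0.16), as did Bcl6 (0.28 ± 0.07), Sesn1 (0.18 ± 0.04) and Arrdc2 (0.39 ± 0.13). Hif3a averaged 417 ± 93.4 in WT lithium mice (SD, n = 9) and 225 ± 97.4 in WT vehicle mice (SD, n = 10), and it averaged 338 ± 62.3 in HT lithium mice and 314 ± 113 in HT vehicle mice. Dusp1, Ddit4, Mt1, Mt2, Cebpd, Cdkn1a and Txnip passed in neither genotype. With fluoxetine 0 of the 25 passed in HT mice, where 0.277% of all genes did, and in WT mice Rasd1 rose (0.46 ± 0.12) and Usp2 fell by 0.22, 2 of the 25, where 5.66% of all genes passed. Lithium exceeded fluoxetine in HT mice for Gjb6 (0.27 ± 0.08) and Rasd1 (0.44 ± 0.12), 2 of the 25, where 2.15% of all genes passed. Without the libraries that stand apart it did so for 1 of the 25.

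**Figure D5:**
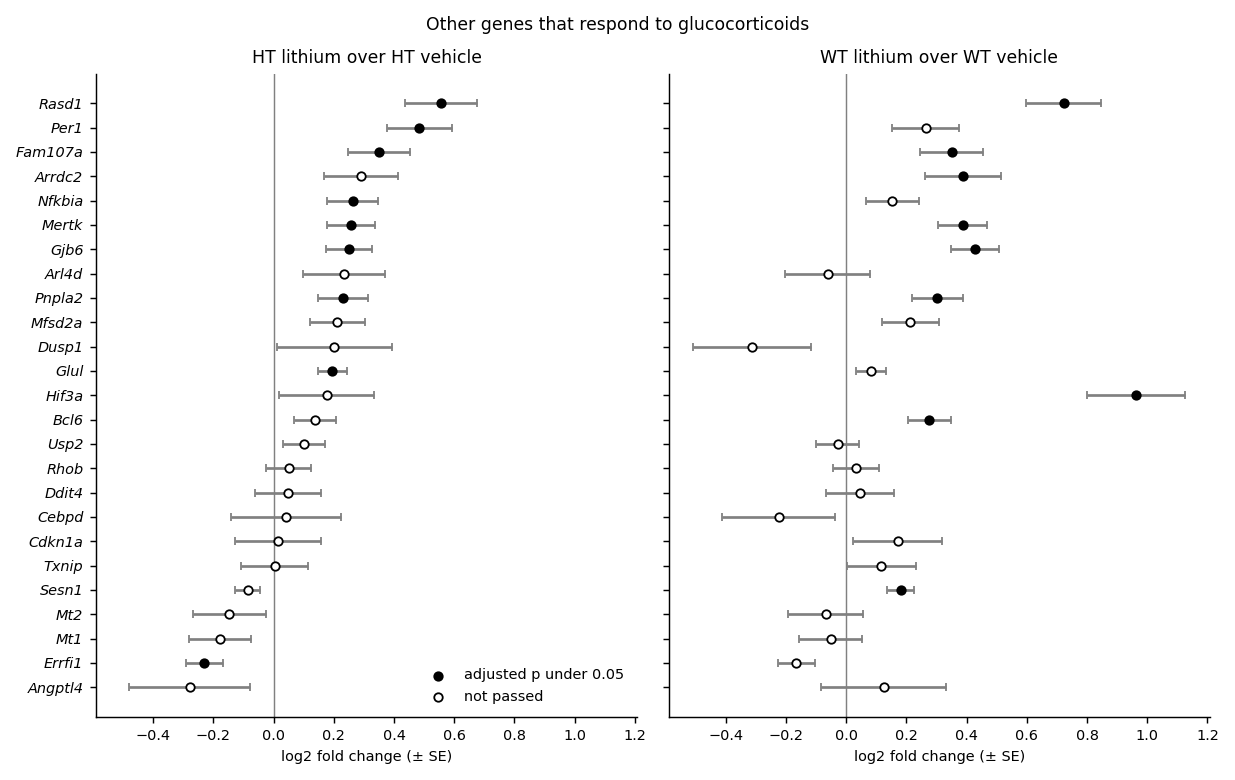
Log2 fold changes ± SE of 25 other glucocorticoid-responsive genes with lithium, in HT mice at left and WT mice at right, ordered by the HT value. Filled circles passed an adjusted p of 0.05, 9 in each genotype.

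Of 16 genes for the receptor's chaperones, coregulators and steroid supply, 1 rose and 2 fell with lithium in HT mice, where 10.9% of all genes rose and 9.43% fell, and 2 rose and 3 fell in WT mice, where 7.66% rose and 5.11% fell. The HT count is near the share of all genes, so it does not set these 16 apart. Ptges3, the p23 cochaperone of the receptor complex, fell in both, by 0.20 in HT (adjusted p = 0.0009) and by 0.18 in WT mice. Hsp90aa1, the inducible chaperone that holds the receptor ready for hormone, also fell in both, by 0.17 in HT and by 0.16 in WT mice.

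Abcb1a, an efflux pump of the blood-brain barrier that carries corticosteroids, rose in HT mice by 0.22 ± 0.06 (adjusted p = 0.00963). In WT mice the coactivators Ncoa1 (0.15 ± 0.05) and Ncoa2 (0.21 ± 0.04) rose, and Crh, the releasing hormone of the stress axis, fell by 0.35. With fluoxetine 0 of the 16 passed in limma in either genotype, where 0.277% of all genes passed in HT and 5.66% in WT mice. An unadjusted p below 0.05 was held by 1 in HT and 5 in WT mice, without the share of all genes below it for comparison. Without the libraries that stand apart 4 of the 16 rose with fluoxetine in WT mice, as did 1469 of the 16599 genes tested. Nr3c2, the mineralocorticoid receptor, averaged 801 ± 81.8 in HT lithium mice and 898 ± 90.1 in HT vehicle mice and did not pass.

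Sult1a1 overlaps Sgf29, and Plin4 overlaps Hdgfl2, each on the opposite strand. The library kit marks strand, but its use in the authors' counting is not given in the sources used here, so reads could be shared between these partners.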

How the data were processed

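Poly(A) RNA of prefrontal cortex was sequenced from 59 mice in 12 groups of genotype, drug and sex, 11 with 5 mice and WT lithium females with 4, as the labels group them. The deposited values are counts divided by a size factor per library (a normalized signal), made by the authors with Salmon 0.11.2 on GRCm38, DESeq2 1.19.11 and R 3.6.0, per the submitters' processing notes. Strand settings and gene filters are not given in the sources used here. Scaled by its lowest nonzero step, every library returned whole reads, for 100.0% of values (within 0.001) and 22984556 to 35969254 per library. These whole reads set a lower limit to the counting error, which is largest for Plin4 and Map3k6, the genes with the fewest reads. They do not cover errors in assigning reads to genes.

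Because the deposited values are normalized, limma 3.58.1 (R 4.3.3, trend and robust) on log2(normalized count + 1) was the test, in place of the edgeR test planned for raw counts. It covered 16599 genes with a mean of at least 10, fitted 12 group means, and used two-sided p-values with Benjamini-Hochberg adjustment within each comparison at 0.05. The procedure was tested on simulated data. Correlations used Python 3.11.15 and numpy 2.4.6, with adjustment over 45 pairs. Alternatives were edgeR 4.0.16 and DESeq2 1.42.0 on the recovered reads, surrogate variables (sva 3.50.0), other scalings, pseudocounts, filters, covariates, each sex alone and each library left out. Leaving out the libraries that stand apart (olfactory bulb index over 2.5, choroid plexus index over 5, or under 5% mitochondrial reads), and the rapid activity and clock covariates, were chosen after seeing the data.

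The 10 genes and the gene lists were chosen with earlier results of these data known. Named outside the 10 are genes of the 2 pathway lists that pass, with some that do not given for contrast, and the 10 genes most like the members. Symbols were found for 18077 of 18088 gene identifiers. Replicate numbers did not pair mice across groups. One gene of the receptor list is not reported here.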

Additional observations from a re-analysis of the deposited data

Results flagged for a closer look

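Among 120 groups of 4 or 5 mice, 4 held a mouse farther from the others than the 95% limit of Dixon's test, where chance gives about 1 in 20. Fkbp5 stood at 1298 in WT vehicle male 1, against 613 to 705 in the other 4 WT vehicle males. Map3k6 stood at 99.6 in HT vehicle female 1, against 53.6 to 65.6 in the other HT vehicle females. Plin4 stood at 79.1 in the same mouse, against 13.6 to 20.8, and its library also held the highest sum of choroid plexus markers. Sgk1 stood at 2357 in WT lithium male 4, against 1495 to 1662 in the other WT lithium males, and this library was the highest of all for 7 of the 10 genes.

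For 5 effects the values of the sexes stood apart or lay on opposite sides of 0, and 2 of these differences passed. With fluoxetine in WT mice, the difference of females from males was -0.57 for Tsc22d3 and -0.49 for Klf9, and both passed in limma. With lithium in HT mice it was 0.92 for Fkbp5 and 1.06 for Sult1a1, where every male on lithium lay below every male on vehicle while the female change was positive, and neither passed in limma (adjusted p = 0.113 for each). With fluoxetine in HT mice it was 0.54 for Zbtb16, which did not pass in limma (adjusted p = 0.631).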

How the results depend on the processing

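Of the 10 genes, 3 passed with lithium in HT mice under the main settings, 1 in males alone, and 2 to 3 with 1 library left out. Lithium over fluoxetine in HT mice gave 1, but 2 with a pseudocount of 5, quantile normalization, only the groups compared, 2 surrogate variables, bulb and choroid plexus covariates, an endothelial covariate, activity and clock covariates, edgeR or DESeq2, 0 in females alone, and 1 to 2 with 1 library left out. Fluoxetine in WT mice gave 1, but 0 with only the groups compared or in females alone, 2 with quantile normalization, 3 in males alone or with activity and clock covariates, 4 with surrogate variables or bulb and choroid plexus covariates, and 0 to 3 with 1 library left out. Of each of these 4, 3 rose and 1, Nr3c1, fell, at -0.18 with surrogate variables and -0.22 with bulb and choroid plexus covariates. The sex difference with fluoxetine in WT mice gave 2, but 0 with only the groups compared or without the libraries that stand apart, and 0 to 4 with 1 library left out. Map3k6 or Nr3c1 passed as well under the settings named with that result. Lithium by sex in HT mice gave 0, 1 with DESeq2 and 0 to 1 with 1 library left out. Females against males over all arms gave 0, but 1 with surrogate variables, bulb and choroid plexus or activity and clock covariates, and 2 without the libraries that stand apart. The median lithium change in WT mice was 0.63, 0.37 in females alone and 0.58 to 0.69 with 1 library left out. The median of HT against WT mice on vehicle was 0.23, -0.047 in females alone, 0.51 in males alone and 0.19 to 0.27 with 1 library left out. Correlated pairs numbered 18, 5 in females alone and 30 with surrogate variables removed. The cause was not tested for any of these, beyond the smaller number of mice where a sex or library is left out. The counts stand without the share of all genes that passed under each setting. A change in them therefore need not be particular to these genes.

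Signs turned for single genes, listed here where the main change exceeded its SE. In females alone these were Map3k6 (-0.076), Tsc22d3 (-0.091) and Klf9 (-0.15) with fluoxetine in WT mice, Klf9 (-0.00021) with lithium in WT mice, and Fkbp5 (-0.17), Zbtb16 (-0.045), Map3k6 (-0.24), Sult1a1 (-0.050), Tsc22d3 (-0.11) and Klf9 (-0.032) between HT and WT mice on vehicle. In males alone they were Nr3c1 (0.071) with fluoxetine in WT mice, Sult1a1 (-0.16) and Plin4 (-0.053) for lithium over fluoxetine in HT mice, and Sult1a1 (0.088) and Nr3c1 (-0.11) between HT and WT mice on fluoxetine. Without the libraries that stand apart they were Pdk4 (0.031) and Nr3c1 (0.0086) with fluoxetine in WT mice and Nr3c1 (-0.0014) between HT and WT mice on fluoxetine. With activity and clock covariates they were Map3k6 (-0.00032) between HT and WT mice on fluoxetine and Pdk4 (-0.043) for the sex difference between HT and WT mice on vehicle. For that sex difference the same covariates also turned Nr3c1 (-0.14), whose main change lay within its SE.

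Same-numbered mice did not deviate together (mean correlation -0.00106, from -0.49 to 0.57), and 8 of 59 correlated best with their own number. A replicate block moved the count for fluoxetine in WT mice to 2 and left the counts of the other comparisons within 1.5 times.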
